A study of Mus musculus with 6 samples.

Results

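The 4 mouse genes Pdzrn3, Pdzrn4, Lnx1 and Lnx2 encode ubiquitin ligases of the LNX family. They were taken by symbol from the 49315 genes of a count table of the mouse medial ganglionic eminence (MGE). All 4 had a row in the table and all 4 passed the filter on low counts. The MGE, a ventral part of the embryonic forebrain, gives rise to many interneurons of the cortex. It was dissected at embryonic day 14, and each library was made from total RNA of 1 pool of 3 embryos (6 eminences). The 3 KO libraries came from Nkx2.1-Cre; Prdm16fl/fl; Ai14 embryos and the 3 WT libraries from Nkx2.1-Cre; Prdm16+/+; Ai14 embryos. Both groups thus carried Nkx2.1-Cre, which recombines in MGE progenitors and their descendants, and the Ai14 reporter. Vessels and other cells outside that lineage, which are part of dissected tissue, are not targeted by this Cre. The question of the comparison is how loss of Prdm16, which encodes a zinc finger regulator of transcription active in neural progenitors, alters MGE transcripts. Pdzrn3 was of interest because the study named it as a gene controlled by PRDM16.

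The proteins of these 4 genes are RING-type ubiquitin ligases. An amino-terminal RING domain recruits a ubiquitin-conjugating enzyme, and PDZ domains bind the carboxy-terminal tails of target proteins. LNX1 is named as ligand of NUMB protein X, since it binds NUMB, an inhibitor of Notch signalling, and can mark it for degradation. LNX2 also binds NUMB. PDZRN3 (also called LNX3) acts on the receptor kinase MuSK at the neuromuscular junction and on Dishevelled in endothelial cells, and PDZRN4 (LNX4) is its closest relative.

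In the pools labelled KO, Lnx1 was lower and the other 3 genes did not pass the test. Lnx1 averaged 1.37 ± 0.104 CPM in KO and 2.04 ± 0.285 CPM in WT (SD, n = 3 each), which was 1.48-fold lower in KO. CPM, the usual normalised read count, gives a gene's reads relative to the scaled size of its library. Pdzrn3 averaged 16.4 ± 1.42 CPM in KO and 16.3 ± 1.04 CPM in WT, and the 95% interval of its fold change, 0.876 to 1.16, spanned 1. In the same test 20.2% of 18079 genes were called at an adjusted p under 0.05, and 10.5% were called as lower, so 1 called gene of 4 is close to the share among all genes.

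Total counts per library were between 36517047 and 55552298 in KO and between 33188277 and 46301483 in WT. Prdm16 itself had 2376, 1870 and 2527 counts in KO and 2572, 1574 and 1743 counts in WT (log2 fold change 0.02, SE 0.09, edgeR adjusted p = 0.884). A count covers the whole gene and the floxed exons are not named in the labels, so the direction of each difference rests on the label KO. MGE markers were abundant, with Nkx2-1 at 769.5 ± 118 CPM in KO and 646.8 ± 29.4 CPM in WT. KO 1 stood apart from the other KO pools. Its counts differed from those of KO 2 and KO 3 by 26.0 and 40.0 times the counting noise (chi-square over degrees of freedom), against 7.13 for KO 2 and KO 3 and 3.00 to 7.93 among WT pools. The sex of the pools was uneven as well, as 4 Y-linked genes together had 237.3, 124.2 and 0.36 CPM (relative to unscaled total counts) in KO 1 to 3 and 47.1 to 83.7 in WT. Without KO 1 there were 3752 genes called as higher and 3804 as lower, against 1758 and 1897 with all 6 libraries, and without any 1 other library 464 to 810 higher and 727 to 1150 lower.

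The genes lie at separate loci of GRCm38. Pdzrn3 (ENSMUSG00000035357) spans chromosome 6, 101149609 to 101377897, on the minus strand. Pdzrn4 (ENSMUSG00000036218) spans chromosome 15, 92396881 to 92771819, on the plus strand. Lnx1 (ENSMUSG00000029228) spans chromosome 5, 74592447 to 74702912, and Lnx2 (ENSMUSG00000016520) spans 147016655 to 147076586 of the same chromosome, both on the minus strand. Their joined exons hold 7256, 4733, 3829 and 4557 bases for Pdzrn3, Pdzrn4, Lnx1 and Lnx2.

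The bases upstream of the start sites of Pdzrn3, the named target, and of Lnx1, the gene that was called, are shown because they differ in base composition. Both are 5′ to 3′ on the minus strand and come from RefSeq on GRCm38.p6. Capitals mark CpG dinucleotides. Bases that GENCODE M21 counts as exon were left off, which shortened the Lnx1 stretch to 241 bases.
Pdzrn3, chr6:101377898-101378147: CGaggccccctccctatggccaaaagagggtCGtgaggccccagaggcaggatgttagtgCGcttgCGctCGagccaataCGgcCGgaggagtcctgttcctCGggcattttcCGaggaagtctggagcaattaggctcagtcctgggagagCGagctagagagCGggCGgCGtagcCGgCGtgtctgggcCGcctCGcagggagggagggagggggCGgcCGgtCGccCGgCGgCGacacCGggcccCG
Lnx1, chr5:74702913-74703153: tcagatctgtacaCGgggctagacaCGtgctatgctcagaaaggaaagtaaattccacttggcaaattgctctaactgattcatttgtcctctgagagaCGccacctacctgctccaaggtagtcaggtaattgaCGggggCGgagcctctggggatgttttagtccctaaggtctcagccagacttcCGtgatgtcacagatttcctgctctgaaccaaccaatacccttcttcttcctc

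Over the whole 250 bases before the start, Pdzrn3 held 25 CpG at a GC content of 69.2%, and Lnx1 held 6 CpG at a GC content near the median of 52.4% over 32851 such windows. The observed CpG count was 0.859 of that expected from base composition in Pdzrn3 and 0.39 in Lnx1, against a median of 0.374 over the same windows. Lnx2 was CpG-rich like Pdzrn3 (0.985, 27 CpG), while the 2 annotated starts of Pdzrn4 were CpG-poor (0.073 and 0.237). The GC box GGGCGG, read on both strands, occurred at 2 places upstream of Pdzrn3, 1 of Lnx1, 1 of Lnx2 and 0 of both Pdzrn4 starts, and in 32.7% of all windows. The TATA box TATAAA was in 0 of the 5 windows and in 12.4% of all windows. GATGAG, the core of a motif described for MECOM, the closest relative of PRDM16, had 1 match upstream of Lnx2 and 0 in the other 4 windows, and 10.1% of all windows held it. Binding was not measured in these data.

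Pdzrn3, the named target, had 797, 560 and 868 counts in KO 1 to 3 and 725, 523 and 670 counts in WT 1 to 3. After scaling these were 18.0, 15.4 and 15.7 CPM in KO and 15.7, 15.6 and 17.5 CPM in WT. Each group held 1 high and 2 lower pools, and the range of WT lay within that of KO. KO over WT, this was a log2 fold change of 0.0085 (SE 0.09, edgeR adjusted p = 0.956). Its interval reached from 0.876 to 1.16, so a fold above 1.16 or below 0.876 lies outside the 95% interval from these 6 pools. Without KO 1 it was -0.06 on the log2 scale (SE 0.08, edgeR adjusted p = 0.6).

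Pdzrn4 is the relative of Pdzrn3 with the same layout of domains. It had 677, 512 and 804 counts in KO and 524, 512 and 527 counts in WT. Scaled, these were 15.3, 14.1 and 14.6 CPM in KO and 11.4, 15.3 and 13.7 CPM in WT. The KO pools lay close to each other, whereas WT 1 lay below every other pool, and the groups overlapped through WT 2. KO pools differed from WT by 0.12 on the log2 scale (SE 0.11, edgeR adjusted p = 0.45), with a 95% interval of the fold of 0.918 to 1.29. Without WT 1 it was 0.02, and without WT 2 it was 0.22 (edgeR adjusted p = 0.913 and 0.245).

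Lnx1 had the fewest reads, with 66, 47 and 74 counts in KO and 79, 75 and 83 counts in WT. Scaled, these were 1.49, 1.29 and 1.34 CPM in KO and 1.71, 2.24 and 2.16 CPM in WT. Every KO pool lay below every WT pool, with KO 1 and WT 1 nearest to each other. Groups that do not overlap in this way were found in 39.9% of all tested genes and, with KO below WT, in 19.6%. Its log2 fold change of -0.56 (SE 0.17) passed at an edgeR adjusted p = 0.0446, with a 95% interval of the fold from 0.521 to 0.882. Counting error alone was 11.0% to 14.6% of a library's value, against 3.39% to 5.16% for the other 3 genes. The SD of Lnx1 between pools was 7.54% of the mean in KO, below the counting error of each KO pool. In WT it was a larger share, at 0.285 CPM on a mean of 2.04 CPM. This WT spread was above the counting error of each WT pool. It was below only the largest counting error of Lnx1, which belonged to KO 2 with 47 counts.

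The direction of Lnx1 held in all 16 alternatives, but the call held in 8 of them. It was lost without KO 2, KO 3, WT 2 or WT 3 (edgeR adjusted p = 0.136, 0.14, 0.158 and 0.145), where the log2 fold change was -0.52, -0.53, -0.49 and -0.51. It was kept without KO 1 (edgeR adjusted p = 0.0205) and without WT 1 (edgeR adjusted p = 0.0456). DESeq2, with an adjusted p of 0.079, and limma voom, with 0.0552, also missed the threshold. Of the exon bases of Lnx1, 466 (12.2%) overlap those of Fip1l1, a gene of messenger RNA 3′ end processing on the opposite strand. Fip1l1 was read at 151 ± 7.15 CPM in KO and 141 ± 3.76 CPM in WT (log2 fold change 0.10, edgeR adjusted p = 0.228). Whether the counting used strand was not known here, so reads of the shared bases may be split between both genes or left out.

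Lnx2, the other NUMB-binding ligase, had 511, 388 and 641 counts in KO and 536, 375 and 427 counts in WT. These were 11.5, 10.7 and 11.6 CPM in KO and 11.6, 11.2 and 11.1 CPM in WT. Its 6 values lay closest together among the 4 genes, with a spread of 4.75% of the mean in KO and 2.32% in WT. The groups overlapped. Their log2 fold change of -0.0060 did not pass (SE 0.08, edgeR adjusted p = 0.968), with a 95% interval of the fold of 0.874 to 1.13.

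**Figure D1:**
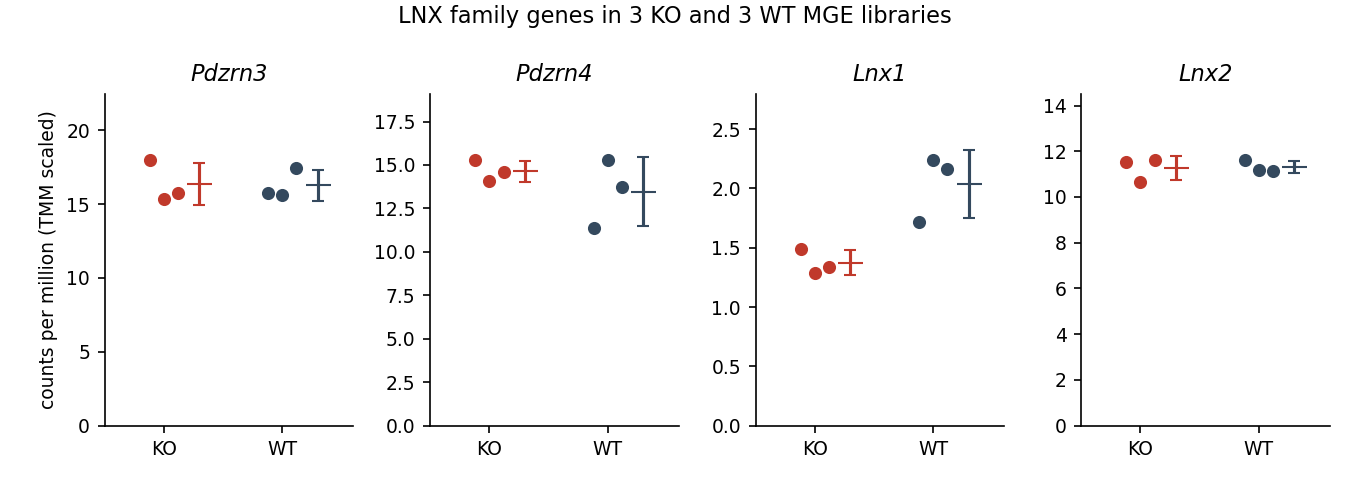
Normalised read counts (CPM) of the 4 LNX family genes, 1 panel a gene, with KO left of WT. Points are single libraries in the order 1 to 3, and the bar beside them is the mean ± SD (n = 3 each). The 3 KO points of Lnx1 (1.29 to 1.49 CPM) lie below the 3 WT points (1.71 to 2.24 CPM), while the groups overlap in the other 3 panels.

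**Figure D2:**
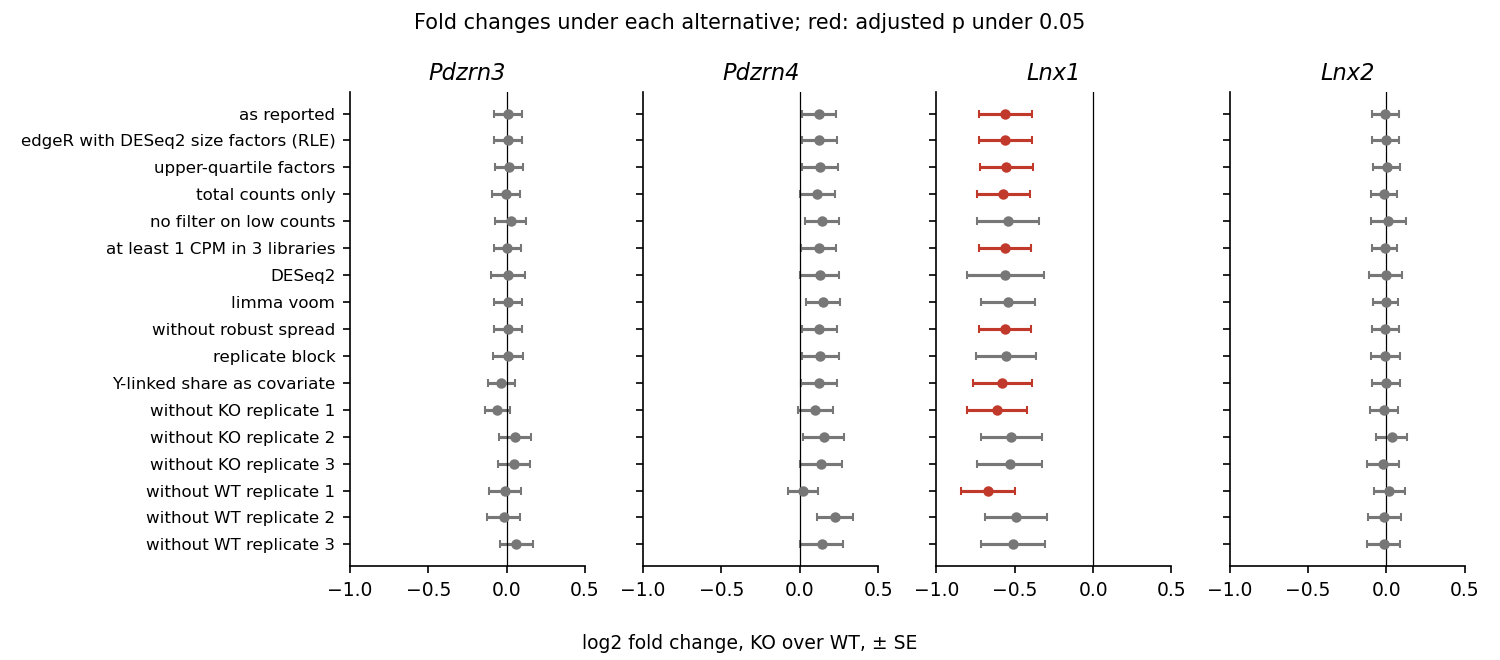
Log2 fold change of each gene, KO over WT, with its SE, as reported and under 16 alternatives. Lnx1 stays between -0.67 and -0.49 and is past the threshold (red) in 8 of the alternatives, while Pdzrn3 stays between -0.06 and 0.06 and Lnx2 between -0.02 and 0.03.

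The level of Lnx1 relative to its relatives is given as the log2 ratio of Lnx1 to each of the other 3 genes within a library, so that scaling cancels. As Lnx1 was the called gene and the others had log2 fold changes near 0, these ratios restate its fold change and are no further support for it. Against Lnx2 the ratio was -2.95, -3.05 and -3.12 in KO and -2.76, -2.32 and -2.36 in WT, a difference of -0.56. Against Pdzrn3 the difference was -0.57, and against Pdzrn4 it was -0.69, with ratios of -3.36, -3.45 and -3.44 in KO and -2.73, -2.77 and -2.67 in WT. In all 3 ratios every KO pool lay below every WT pool. An exact permutation test of these ratios could not pass, since 0.1 is the smallest two-sided p that it allows for 3 against 3.

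Levels of different genes can be compared per exon length only. In RPKM (CPM divided by exon length in kilobases), Pdzrn4 stood highest at 3.09 ± 0.13 in KO and 2.85 ± 0.419 in WT (SD, n = 3 each). Lnx2 followed at 2.47 ± 0.118 in KO and 2.48 ± 0.0576 in WT, then Pdzrn3 at 2.26 ± 0.195 in KO and 2.24 ± 0.143 in WT. Lnx1 came last at 0.359 ± 0.0271 in KO and 0.533 ± 0.0745 in WT. The ranges of Pdzrn4 and Lnx2 overlapped, as did those of Lnx2 and Pdzrn3, although Pdzrn4 was above Lnx2 in 5 of 6 libraries and Lnx2 above Pdzrn3 in 6 of 6. The order of the middle pair depended on the length used. By the length of the longest protein-coding transcript, Pdzrn3 (3.75 to 4.38 RPKM) was above Lnx2 (2.34 to 2.55) in 6 of 6 libraries. The range of Pdzrn3 then lay within that of Pdzrn4 (3.37 to 4.53). Lnx1 was lowest in every library by either length. Of the summed level of these 4 genes per exon length, Lnx1 made up 4.38 ± 0.111% in KO and 6.55 ± 0.556% in WT. Pdzrn3 made up 27.5 ± 1.08% in KO and 27.7 ± 1.88% in WT.

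**Figure D3:**
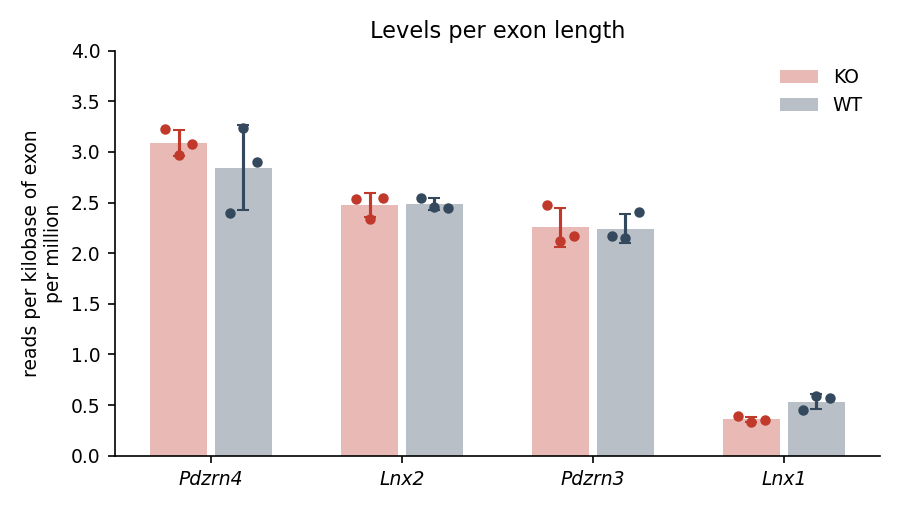
RPKM over the joined exons for the 4 genes, in order of their mean, with KO left of WT. Bars are means, error bars are SD (n = 3 each) and points are libraries. Pdzrn4, Lnx2 and Pdzrn3 lie between 2.12 and 3.23, and Lnx1 lies between 0.337 and 0.585.

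The 3 protein-coding genes whose pattern over the 6 libraries was most like that of each member were found by Pearson's r of log2 CPM among 11056 protein-coding genes with a mean of at least 5 CPM. These values of r describe 6 points that share their libraries. How high the best r would be by chance among so many genes was not tested. Closest to Lnx1 were Arl4c (r = 0.999), a small GTPase gene, Ngef (r = 0.9985), which encodes the guanine exchange factor ephexin, and Nt5dc3 (r = 0.9983). Since they were picked for following Lnx1, a lower level in KO was fixed by that choice, and it is given as a description. Ngef had 5.06, 4.34 and 4.48 CPM in KO and 6.16, 8.33 and 8.32 CPM in WT (log2 fold change -0.71). Closest to Pdzrn3 were Tex264 (r = 0.9737), a receptor gene of endoplasmic reticulum autophagy, Lrrc56 (0.9723) and Lcmt2 (0.9706), all highest in KO 1. Closest to Pdzrn4 were Fam189a1 (0.9903), the nucleosome assembly gene Nap1l2 (0.9838) and Hid1 (0.9825), all lowest in WT 1. Closest to Lnx2 were Dnlz (0.9718), Fam193a (0.9675) and Mmp14 (0.9522), a membrane metalloprotease gene.

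The 4 genes sit among neighbours that also carry paired names. Gsx2 and Rasl11b flank Lnx1, and Gsx1 and Rasl11a flank Lnx2. Likewise Gxylt2 is a neighbour of Pdzrn3 and Gxylt1 of Pdzrn4, and contactin genes are neighbours of both. Cntn3 and Cntn6 lie 784.8 and 3114.9 kb from Pdzrn3, and Cntn1 lies 54.9 kb from Pdzrn4. Of the 24 nearest protein-coding genes, 3 on each side of each member, 22 were tested, 4 were higher in KO, 1 was lower and 17 did not pass. The 5 called genes of 22 are close to the 20.2% called among all tested genes (9.72% higher, 10.5% lower). Gsx2, a homeobox gene of ventral forebrain progenitors that lies 372.7 kb from Lnx1, had 32.1, 40.3 and 40.9 CPM in KO and 21.7, 17.2 and 18.4 CPM in WT. It rose 1.98-fold (edgeR adjusted p = 0.000783) and was called in each of the 16 alternatives, so the genes on this stretch of chromosome 5 did not share a direction. Chic2, between Lnx1 and Gsx2, rose 1.28-fold to 61.6 ± 8.74 CPM, against 48.2 ± 3.00 CPM in WT (edgeR adjusted p = 0.0344).

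Near Lnx2, Gsx1, the homeobox relative of Gsx2, had 20.2, 26.8 and 31.0 CPM in KO and 19.7, 19.6 and 18.8 CPM in WT. It rose 1.35-fold (edgeR adjusted p = 0.0488). Rasl11a, a Ras-like GTPase gene, rose 1.33-fold to 7.55 ± 0.958 CPM, against 5.69 ± 0.149 CPM in WT (edgeR adjusted p = 0.0388). Rasl11b near Lnx1 did not pass (log2 fold change 0.28, edgeR adjusted p = 0.239). Polr1d, an RNA polymerase subunit gene, starts 0.5 kb from Lnx2 in the opposite direction and had 49.0 ± 4.64 CPM in KO and 42.3 ± 0.987 CPM in WT (edgeR adjusted p = 0.0722).

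Near Pdzrn3, 6 of 6 neighbours did not pass. Chl1, a neural adhesion gene, had 108, 70.1 and 74.1 CPM in KO and 105, 173 and 159 CPM in WT (log2 fold change -0.79, SE 0.24, edgeR adjusted p = 0.0681), and the groups overlapped through KO 1 and WT 1. The 6 antisense or experimentally unproven gene models that overlap Pdzrn3 were all too low to test, with at most 0.287 CPM in any library. Near Pdzrn4, Cntn1, the contactin gene 54.9 kb away, had 19.3, 15.6 and 13.4 CPM in KO and 20.8, 27.3 and 23.0 CPM in WT and was 1.47-fold lower in KO (edgeR adjusted p = 0.0241). Among the called neighbours Chic2, Gsx1 and Rasl11a lost their call without KO 2, KO 3, WT 1, WT 2 or WT 3, and Cntn1 without KO 2, KO 3, WT 2 or WT 3. Over all 16 alternatives Gsx1 lost its call in 10, Chic2 and Rasl11a in 6 each and Cntn1 in 5.

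**Figure D4:**
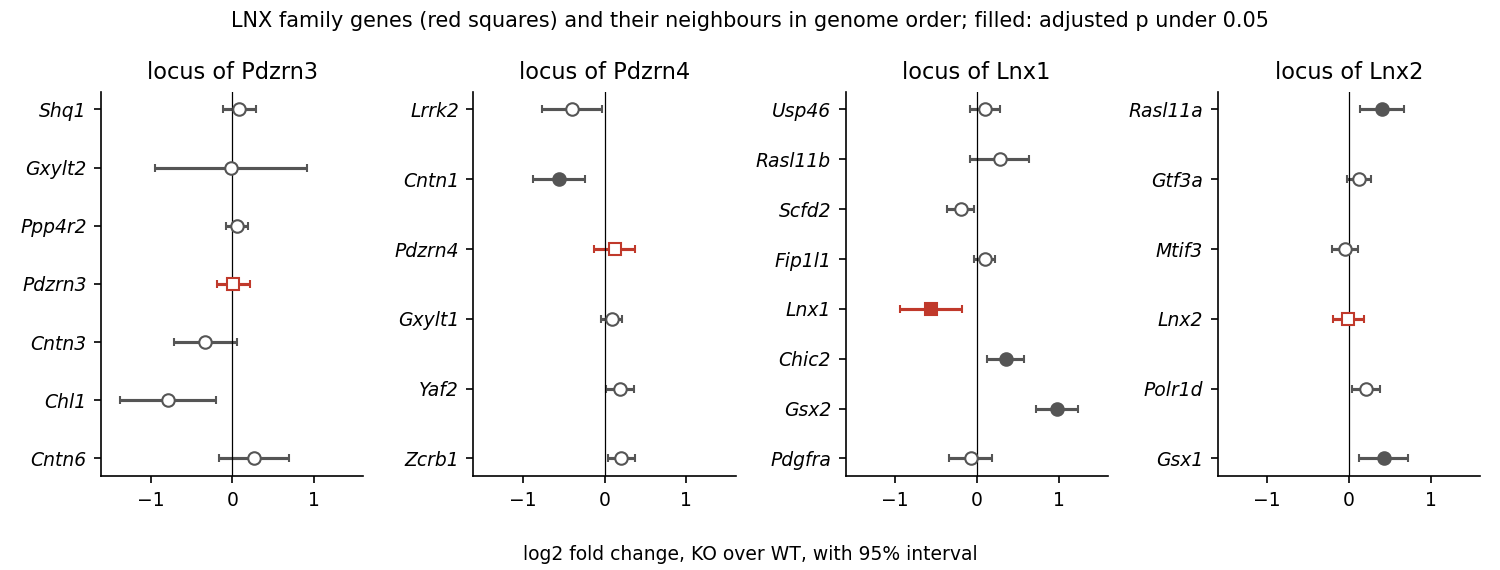
Log2 fold change, KO over WT, with its 95% interval for each LNX family gene (square) and its tested neighbours (circles), listed in order along the chromosome; Fip1l1 overlaps Lnx1. Filled symbols passed an adjusted p of 0.05: Lnx1 lies at -0.56, while Chic2 and Gsx2 on the same stretch lie at 0.35 and 0.98.

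Marker levels of the dissected cell types differed between the groups, and their part in the values of Lnx1 and of the lists below was not tested. In bulk tissue fewer cells of a type and less RNA per cell cannot be told apart. For the counts of called markers, the shares among all tested genes were 9.72% higher and 10.5% lower. Of 10 radial glia markers, 8 were higher and 1 lower in KO, with a summed level of 2707 to 3202 CPM in KO and 1877 to 1995 CPM in WT. Of 10 neuronal markers, 3 were lower and 0 higher, with 5584 to 5914 CPM in KO and 6234 to 6421 CPM in WT. Of 8 mural cell markers, 7 were lower, with 86.8 to 122 CPM in KO and 144 to 147 CPM in WT. Endothelial markers (2 of 10 lower) summed to 247.6 to 287 CPM in KO and 294.1 to 297.6 CPM in WT, and microglia markers (3 of 8 lower) to 43.2 to 50.6 CPM in KO and 58.5 to 61.3 CPM in WT. Cortical markers (5 of 8 higher) summed to 69.8 to 107 CPM in KO and 35.3 to 60.3 CPM in WT, and red cell markers (2 of 5 tested higher) to 23.2 to 30.5 CPM in KO and 17.7 to 19.1 CPM in WT. Of the markers with a row, 0 were at 0 counts in all libraries. Of 8 MGE markers, Lhx8 was higher, Lhx6 and Dlx1 were lower and 5 did not pass.

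Binding partners and substrates reported for LNX proteins were mostly without a call. Of 15 genes 14 were tested, 2 were higher, 1 was lower and 11 did not pass, with a median log2 fold change of 0.01, against -0.0024 over all tested genes. Among all tested genes 9.72% were higher and 10.5% lower, and here 14.3% were higher and 7.14% lower. Erbb2, a receptor kinase gene whose product binds LNX1, had 15.9 ± 0.637 CPM in KO and 10.8 ± 0.627 CPM in WT (log2 fold change 0.56, SE 0.08, edgeR adjusted p = 0.00279). Numbl, the close relative of Numb, rose to 115 ± 5.85 CPM in KO, against 93.8 ± 4.74 CPM in WT (log2 fold change 0.30, edgeR adjusted p = 0.0117). Numb itself had 35.3 ± 3.02 CPM in KO and 30.1 ± 0.641 CPM in WT, with every KO pool above every WT pool, as in 20.3% of all tested genes, but did not pass (log2 fold change 0.23, edgeR adjusted p = 0.0549). Pkp4, a plakophilin gene, was lower (log2 fold change -0.23, edgeR adjusted p = 0.022). Musk, the muscle receptor kinase gene, was listed at 0 counts in all 6 libraries.

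Among Numb adaptors and ubiquitin ligases of Notch signalling, 2 of 16 were higher, 4 were lower and 10 did not pass. The shares over all tested genes were 9.72% higher and 10.5% lower. The median log2 fold change of the Notch list was -0.12. Numb and Numbl are in this list too, so the Notch list is not independent of the list of partners. Neurl1b, a neuralized ligase gene that acts on Notch ligands, had 17.3 ± 1.38 CPM in KO and 25.4 ± 1.34 CPM in WT (log2 fold change -0.55, SE 0.08, edgeR adjusted p = 0.00262). Mib2, of the same function, was lower (log2 fold change -0.23, edgeR adjusted p = 0.0167), whereas Mib1 had 124 ± 4.48 CPM in KO and 109 ± 4.98 CPM in WT and did not pass (edgeR adjusted p = 0.0528). Dtx4, a deltex ligase gene, rose by 0.30 on the log2 scale (edgeR adjusted p = 0.0159). Aak1, a kinase gene of NUMB endocytosis, was lower as well (log2 fold change -0.23, edgeR adjusted p = 0.0257). Neurl1a had 10.4 ± 1.71 CPM in KO and 15.03 ± 3.06 CPM in WT, and the groups overlapped through KO 1 and WT 1 (log2 fold change -0.52, edgeR adjusted p = 0.048). Its call was lost in 9 of 16 alternatives, with adjusted p-values from 0.0101 to 0.17 over all of them, and it was lost without KO 2, KO 3, WT 2 or WT 3 (edgeR adjusted p = 0.157, 0.163, 0.17 and 0.157).

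Of 21 Dishevelled and planar cell polarity genes 20 were tested, 5 were lower, 0 were higher and 15 did not pass. For comparison, 9.72% of all tested genes were higher and 10.5% lower. The median log2 fold change of the list was -0.07. All 3 Dishevelled genes were without a call, and Dvl3, whose product PDZRN3 acts on, had 141 ± 11.0 CPM in KO and 148 ± 0.617 CPM in WT (log2 fold change -0.07, edgeR adjusted p = 0.458). Ror2, a receptor of Wnt5a, had 5.13 ± 1.12 CPM in KO and 9.68 ± 0.932 CPM in WT (log2 fold change -0.91, SE 0.15, edgeR adjusted p = 0.00506). The cadherin gene Celsr3 (log2 fold change -0.43), Ankrd6 (-0.34), Prickle2 (-0.63) and the Wnt receptor gene Fzd6 (-0.50) were lower too, at edgeR adjusted p-values of 0.0093, 0.00698, 0.0123 and 0.0166.

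Of 27 other PDZ scaffold genes 2 were higher, 6 were lower and 19 did not pass, with a median log2 fold change of -0.03. Thus 7.41% were higher and 22.2% lower, against 9.72% and 10.5% among all tested genes. Grip2, a scaffold of glutamate receptors, had 16.2 ± 1.31 CPM in KO and 27.3 ± 2.33 CPM in WT (log2 fold change -0.75, SE 0.09, edgeR adjusted p = 0.000875). The synaptic scaffold genes Dlg2 (log2 fold change -0.53, edgeR adjusted p = 0.00585) and Shank2 (-0.46, edgeR adjusted p = 0.0105) were lower. Gipc1, an endosomal adaptor gene, rose to 118 ± 5.47 CPM in KO, against 95.3 ± 1.07 CPM in WT (edgeR adjusted p = 0.00563).

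Ubiquitin-activating and -conjugating enzymes load the ubiquitin that LNX ligases pass on. Of 23 genes 7 were higher (30.4%), 0 were lower and 16 did not pass, with a median log2 fold change of 0.18. Over all tested genes 9.72% were higher and 10.5% lower. Ube2l3 had 179 ± 9.75 CPM in KO and 152 ± 1.24 CPM in WT (log2 fold change 0.23, edgeR adjusted p = 0.021), Ube2a was at 0.27 (edgeR adjusted p = 0.0303) and Ube2n at 0.23 (edgeR adjusted p = 0.0332). Ube2d3, at 0.21 (edgeR adjusted p = 0.0352), has near-identical relatives with which it can share reads, so its value is uncertain. Without KO 2, KO 3, WT 1, WT 2 or WT 3 in turn, 0 of these genes were called, against 16 higher and 1 lower without KO 1.

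The counts in the other 4 lists also changed with the libraries used. Without KO 1, 4 partner genes were higher and 4 lower, 5 genes of the Notch list were higher and 9 lower, 1 polarity gene was higher and 11 lower, and 2 other PDZ scaffold genes were higher and 11 lower. Without any 1 of the other 5 libraries 0 partner genes were lower, 1 to 3 Notch list genes, 3 to 4 polarity genes and 2 to 4 PDZ scaffold genes. Of the 33 called neighbours and list genes, Gsx2, Erbb2, Neurl1b, Celsr3, Ror2, Ankrd6, Dlg2, Grip2 and Gipc1 were called in every alternative.

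**Figure D5:**
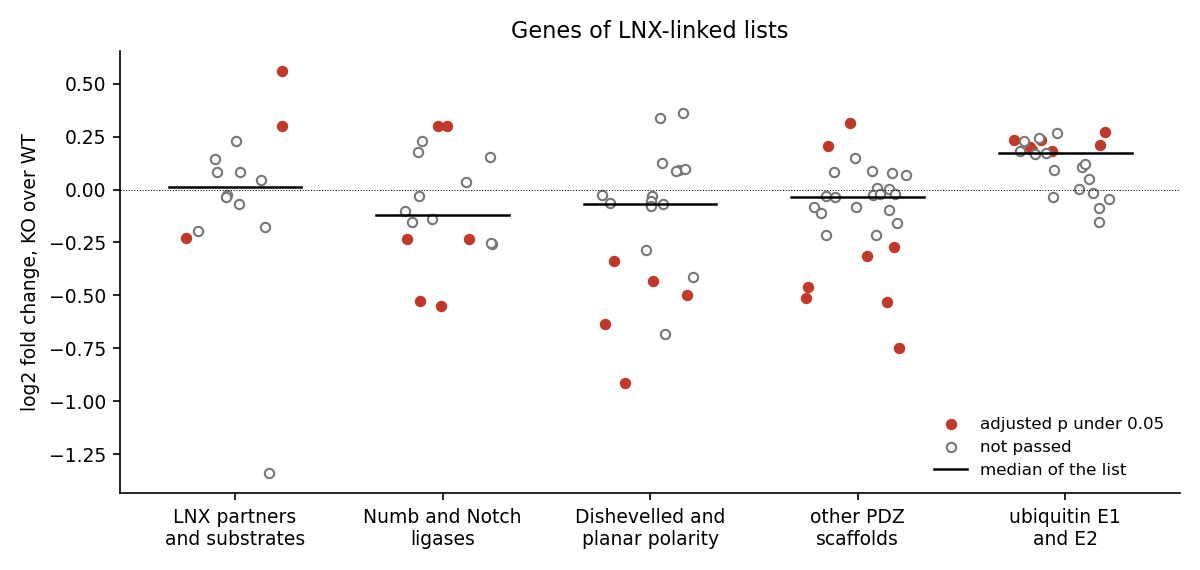
Log2 fold change, KO over WT, of each tested gene in 5 lists linked to LNX ligases. Filled points passed an adjusted p of 0.05 and lines are list medians, which run from -0.12 in the Notch list to 0.18 among ubiquitin enzymes. The lowest open point, Cldn1 (-1.34), a tight junction gene, rests on 19 counts in all KO and 41 in all WT libraries.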

How the data were processed

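Raw counts of reads per gene, as deposited by the authors for 3 KO and 3 WT libraries, were the input of each test. Trimmomatic 0.36, STAR 2.5.2b, featureCounts, Subread 1.5.2, DESeq2 and the build GRCm38 are named, per the submitters' processing notes. Annotation release and strand setting: not given in the sources used here. A deposited normalized table with 6 value columns was not used, since 2 columns share 1 name. GENCODE M21 on GRCm38 gave positions and exon lengths, and it holds 49056 of the table's 49315 IDs. Upstream sequences of the 4 genes came from RefSeq (GRCm38.p6).

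The low-count filter was filterByExpr with a minimum count of 10 and a minimum total of 15, followed by TMM scaling. KO was set against WT in R 4.3.3 by edgeR 4.0.16 (quasi-likelihood, robust), and p-values were adjusted by Benjamini and Hochberg's method over the 18079 genes tested, at 0.05. A fold change is KO over WT. The SE is the size of the log2 fold change over the square root of F. CPM use the TMM-scaled library sizes, and log2 CPM for correlations used a prior count of 2. The procedure was tested on simulated data. Alternatives were other scalings, other filters, DESeq2 1.42.0, limma 3.58.1 (voom), a fit without robust estimation, a block for replicate number, the Y-linked share as covariate and each library left out. Applying them to called neighbours and list genes was added after seeing the data.

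Named genes were the 4 members, their neighbours, up to 4 genes per list with the smallest unadjusted p or any others called, the 3 most alike genes per member, and up to 3 abundant markers per marker list. Outside this rule, Mib1, Dvl3, Musk, Fip1l1, Cldn1 and Lhx8 were named after their values were seen. The members and lists were chosen with earlier results of these data known. Replicates are separate pools of embryos, per the labels. Counting errors cover counting only, as PCR copies of a molecule cannot be told apart here.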

Additional observations from a re-analysis of the deposited data

How the results depend on the processing

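Lnx1 kept its direction in all 16 alternatives and its call in 8. It missed the threshold without a filter on low counts (log2 fold change -0.54, edgeR adjusted p = 0.056), in DESeq2 (-0.56, adjusted p = 0.079), in limma voom (-0.54, adjusted p = 0.0552) and with the replicate block (-0.56, edgeR adjusted p = 0.0986). Leaving out 1 library gave -0.67 to -0.49 (adjusted p up to 0.158). Pdzrn3, Pdzrn4 and Lnx2 passed in none of the 16 alternatives, with adjusted p-values from 0.6 to 0.984, 0.245 to 0.913 and 0.86 to 0.992. The sign of Pdzrn3 changed with total counts only (-0.0032) and with the Y-linked covariate (-0.033), and that of Lnx2 with upper-quartile factors (0.0014) and without a filter (0.011). Leaving out 1 library gave -0.059 to 0.062 for Pdzrn3, 0.02 to 0.22 for Pdzrn4 and -0.021 to 0.033 for Lnx2. RPKM by the length of the longest protein-coding transcript, averaged over the KO and WT means, was 3.98 for Pdzrn3 and 4.16 for Pdzrn4.

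Counts of calls moved most. With the replicate block there were 862 higher and 1219 lower genes, with 0 lower partner genes, 1 higher Notch list gene, 1 higher PDZ scaffold gene and 0 ubiquitin enzymes. Same-numbered libraries deviated with correlations of -0.0756, -0.123 and 0.0264. These values showed no pairing by number, but with 3 libraries per group they cannot exclude it. With the Y-linked covariate there were 2973 higher and 3283 lower genes, with 3 lower partner genes, 4 higher and 8 lower Notch list genes, 10 lower PDZ scaffold genes and 14 higher ubiquitin enzymes. Without a filter 4 Notch list genes, 1 polarity gene and 11 ubiquitin enzymes were higher, and in DESeq2 4 Notch list genes and 1 polarity gene were. The cause was not tested. With 1 library left out, 464 to 3752 genes were higher and 727 to 3804 lower, most of them without KO 1. It gave 1 to 4 higher and 0 to 4 lower partner genes, 0 to 5 and 1 to 9 Notch list genes, 0 to 1 and 3 to 11 polarity genes, 1 to 2 and 2 to 11 PDZ scaffold genes, and 0 to 16 and 0 to 1 ubiquitin enzymes; fewer samples enter each such fit. Of 528 pairs of a called neighbour or list gene and an alternative, 400 kept the call, 128 lost it and 0 reversed. With 47 to 83 counts of Lnx1 per library, depth limits its precision.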
